A study of Bos taurus with 12 samples.

Results

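Hyaluronan matrix genes were followed in cattle blastocysts and in the early conceptuses that grow from them. The group comprised 7 genes, the synthases HAS2 and HAS3, the matrix proteins VCAN, TNFAIP6 and PTX3, the receptor CD44 and the hyaluronidase HYAL2. Every probe set annotated with 1 of these symbols and no other was taken, which gave 16 of the 24016 probe sets tested. HAS2 was measured on all 12 arrays by 2 of its 3 probe sets, and VCAN mostly at Day 13 by 2 of 3. TNFAIP6 was measured by 1 of 2, in Day 13 conceptuses of in vivo origin and in 1 Day 7 pool. HAS3, PTX3 and CD44 were not above background on any array.

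RNA from 12 pools was measured on Affymetrix bovine arrays, with 3 arrays in each of 4 groups. At Day 13 there were conceptuses grown from blastocysts of in vitro origin and conceptuses grown from blastocysts of in vivo origin, and at Day 7 there were the blastocysts themselves, produced in vitro or in vivo. All Day 13 conceptuses, of either origin, had been transferred as blastocysts to synchronized recipient heifers and recovered from them. Each Day 13 pool held 5 conceptuses, each Day 7 pool held 25 blastocysts, 10 blastocysts had been placed in a recipient, and 75 ng of RNA was labelled per array with a protocol of 2 amplification cycles. The labels call the arrays biological replicates. Each pool is a mixture of whole embryos, in which fewer cells of a type and less RNA per cell cannot be told apart.

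Hyaluronan is a long, unsulfated sugar polymer that synthases in the plasma membrane extrude directly into the space around the cell. There it is organised by proteins that bind it: versican cross-bridges it with other matrix proteins, TNFAIP6 transfers heavy chains of inter-alpha-trypsin inhibitor onto it, and PTX3 clusters those heavy chains. In the ovary this assembly makes the cumulus matrix expand before ovulation, and HAS2, VCAN, TNFAIP6, PTX3 and CD44 are therefore used as markers of cumulus cells. The samples described here were embryos, past the stage at which cumulus cells surround the egg.

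Values are log2 probe set intensities as deposited, and levels of different probe sets are not comparable. Without detection calls, a background of 3.39 was set at the 99th percentile of 48 control probe sets with no spiked-in target, of which the highest value was 4.59. Between 41.3% and 42.0% of probe sets exceeded background on each array. The poly-A spike-ins, RNA added before labelling, averaged 9.27, 10.50 and 12.99 in the Day 13 in vitro arrays, against 14.25 to 14.57 in the Day 13 in vivo arrays, and lay between 13.34 and 14.60 in the Day 7 in vitro arrays, against 14.12 to 14.96 in the Day 7 in vivo arrays. The excess of the 3' over the 5' GAPDH control, which grows as labelled copies get shorter, was 3.10 ± 0.92 (log2, SD, n = 3) in Day 13 arrays of in vitro origin, 4.01 ± 1.01 in those of in vivo origin, 3.69 ± 0.43 in Day 7 arrays of in vitro origin and 5.61 ± 0.04 in those of in vivo origin.

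Of the 16 probe sets, 9 never exceeded background, 7 did so on at least 1 array and 6 on at least 3 arrays. Among all probe sets 48.5% never exceeded background and 44.1% did so on at least 3 arrays. Both HAS3 probe sets and the single probe sets of PTX3 and CD44 stayed at or near the floor of the table, 2.23, with highest values of 2.43, 2.23 and 2.27. Several genes were seen by some of their probe sets and not by others. HAS2 and VCAN were each measured on at least 3 arrays by 2 of 3 probe sets. TNFAIP6 was so measured by 1 of 2 and HYAL2, a membrane-anchored hyaluronidase, by 1 of 4. The probe sets designed from the reference mRNA of HAS2 and of VCAN were below background, except on 1 array for HAS2. A probe set without signal does not show that the transcript was absent from the embryos.

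**Figure D1:**
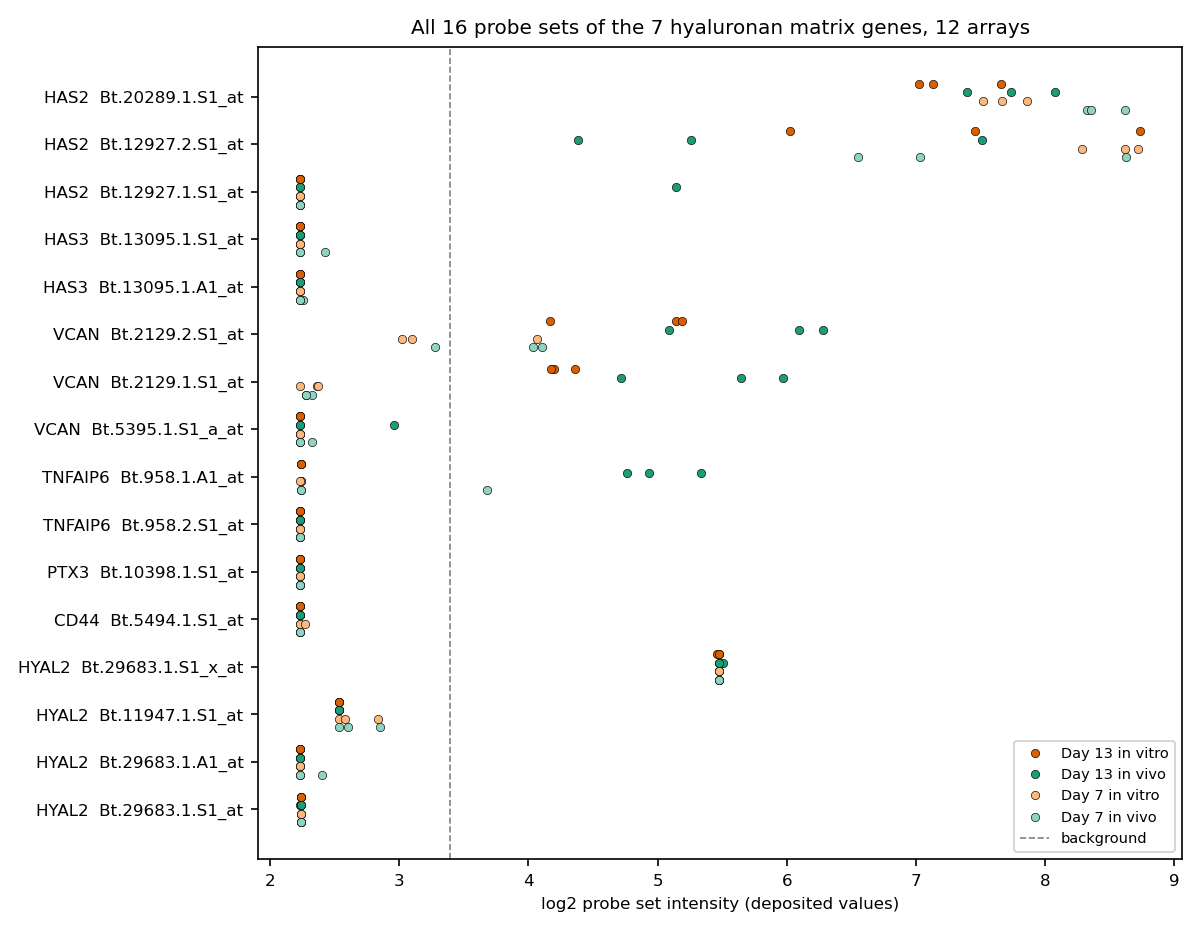
Deposited log2 intensity (horizontal axis) of each of the 16 probe sets on each of the 12 arrays, coloured by group, with the dashed line at the background of 3.39. The 2 brighter HAS2 probe sets and 1 HYAL2 probe set lie right of the line on all arrays, 2 VCAN probe sets and 1 TNFAIP6 probe set cross it, the last HAS2 probe set does so on 1 array, and 9 probe sets stay left of it.

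HAS2, the main hyaluronan synthase of many tissues, was above background on every array by 2 probe sets. Both had lower means at Day 13 than at Day 7 in each origin, but they ordered the origins differently on either day. None of these differences passed in limma's fit. By Bt.20289.1.S1_at the Day 13 in vitro pools had 7.66, 7.13 and 7.03, the Day 13 in vivo pools 7.39, 8.07 and 7.74, the Day 7 in vitro pools 7.67, 7.52 and 7.86, and the Day 7 in vivo pools 8.62, 8.32 and 8.36. The 3 Day 7 in vivo pools were the highest of the 12, and the other groups overlapped with one another. Group means were 7.27 ± 0.34 (SD, n = 3) in Day 13 in vitro pools, 7.74 ± 0.34 in Day 13 in vivo pools, 7.68 ± 0.17 in Day 7 in vitro pools and 8.43 ± 0.16 in Day 7 in vivo pools. From high to low the order was Day 7 in vivo, Day 13 in vivo, Day 7 in vitro and Day 13 in vitro. The first neighbours in that order did not overlap and the others did.

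The second HAS2 probe set, Bt.12927.2.S1_at, gave 8.74, 7.46 and 6.03 in Day 13 in vitro pools, 4.38, 7.52 and 5.26 in Day 13 in vivo pools, 8.62, 8.29 and 8.72 in Day 7 in vitro pools, and 7.03, 6.55 and 8.62 in Day 7 in vivo pools. Its groups overlapped in all 4 pairwise comparisons. The pooled SD within groups was 1.19, at the 96.3rd percentile of the 10591 probe sets above background on at least 3 arrays, whose median was 0.522. For Bt.20289.1.S1_at it was 0.267, at the 13.2nd percentile. The 2 probe sets correlated at r = 0.226 over the 12 arrays and at 0.751 once group means were removed, a description of arrays that share 4 groups. The last HAS2 probe set, Bt.12927.1.S1_at, was at the floor on 11 arrays and at 5.14 in Day 13 in vivo replicate 3.

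VCAN, which encodes the large hyaluronan-binding proteoglycan versican, was brighter at Day 13 by both probe sets that detected it. Bt.2129.1.S1_at gave 4.20, 4.18 and 4.36 in Day 13 in vitro pools and 5.97, 4.71 and 5.64 in Day 13 in vivo pools. The Day 7 in vitro pools had 2.36, 2.37 and 2.23 and the Day 7 in vivo pools 2.28, 2.32 and 2.28, all at background. Every Day 13 pool was thus above every Day 7 pool, and within Day 13 every pool of in vivo origin was above every pool of in vitro origin. The Day 13 in vitro values lay above the background used here and below the highest unmatched control.

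Bt.2129.2.S1_at gave 4.17, 5.14 and 5.19 in Day 13 in vitro pools, 5.08, 6.09 and 6.28 in Day 13 in vivo pools, 3.02, 3.10 and 4.06 in Day 7 in vitro pools, and 4.11, 4.03 and 3.28 in Day 7 in vivo pools. It exceeded background in all 6 Day 13 pools, in 1 of 3 Day 7 in vitro pools and in 2 of 3 Day 7 in vivo pools. The Day 13 pools did not overlap with the Day 7 pools of their own origin, while the origins overlapped on either day. Group means were 4.83 ± 0.58 in Day 13 in vitro pools, 5.82 ± 0.64 in Day 13 in vivo pools, 3.40 ± 0.58 in Day 7 in vitro pools and 3.81 ± 0.46 in Day 7 in vivo pools (SD, n = 3 each), so that the order from high to low was Day 13 in vivo, Day 13 in vitro, Day 7 in vivo and Day 7 in vitro. The 2 VCAN probe sets correlated at r = 0.835 over the 12 arrays and at -0.346 once group means were removed. The last one, Bt.5395.1.S1_a_at, reached at most 2.96.

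TNFAIP6, a secreted protein that binds hyaluronan and carries heavy chains to it, separated the origins at Day 13. By Bt.958.1.A1_at the Day 13 in vitro pools were all at 2.24, whereas the Day 13 in vivo pools had 4.76, 5.34 and 4.93. The Day 7 in vitro pools had 2.24, 2.24 and 2.23 and the Day 7 in vivo pools 3.68, 2.24 and 2.24. The 3 Day 13 in vivo pools were the highest, Day 7 in vivo replicate 1 was the only other pool above background, and the remaining 8 were near the floor. The other TNFAIP6 probe set, Bt.958.2.S1_at, was at the floor on all 12 arrays.

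HYAL2 was the fourth gene above background, by Bt.29683.1.S1_x_at, which ran from 5.46 to 5.51 over the 12 arrays. On 10 arrays its value was the same within 0.005. The suffix marks a set with some probes shared with other sequences, and the other sets designed from the same sequence, Bt.29683.1.S1_at and Bt.29683.1.A1_at, reached at most 2.24 and 2.40. Such near-constant values occur elsewhere in the table: 31 of the 8598 probe sets above background on every array ranged over less than 0.1. No level of HYAL2 is read from this probe set.

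**Figure D2:**
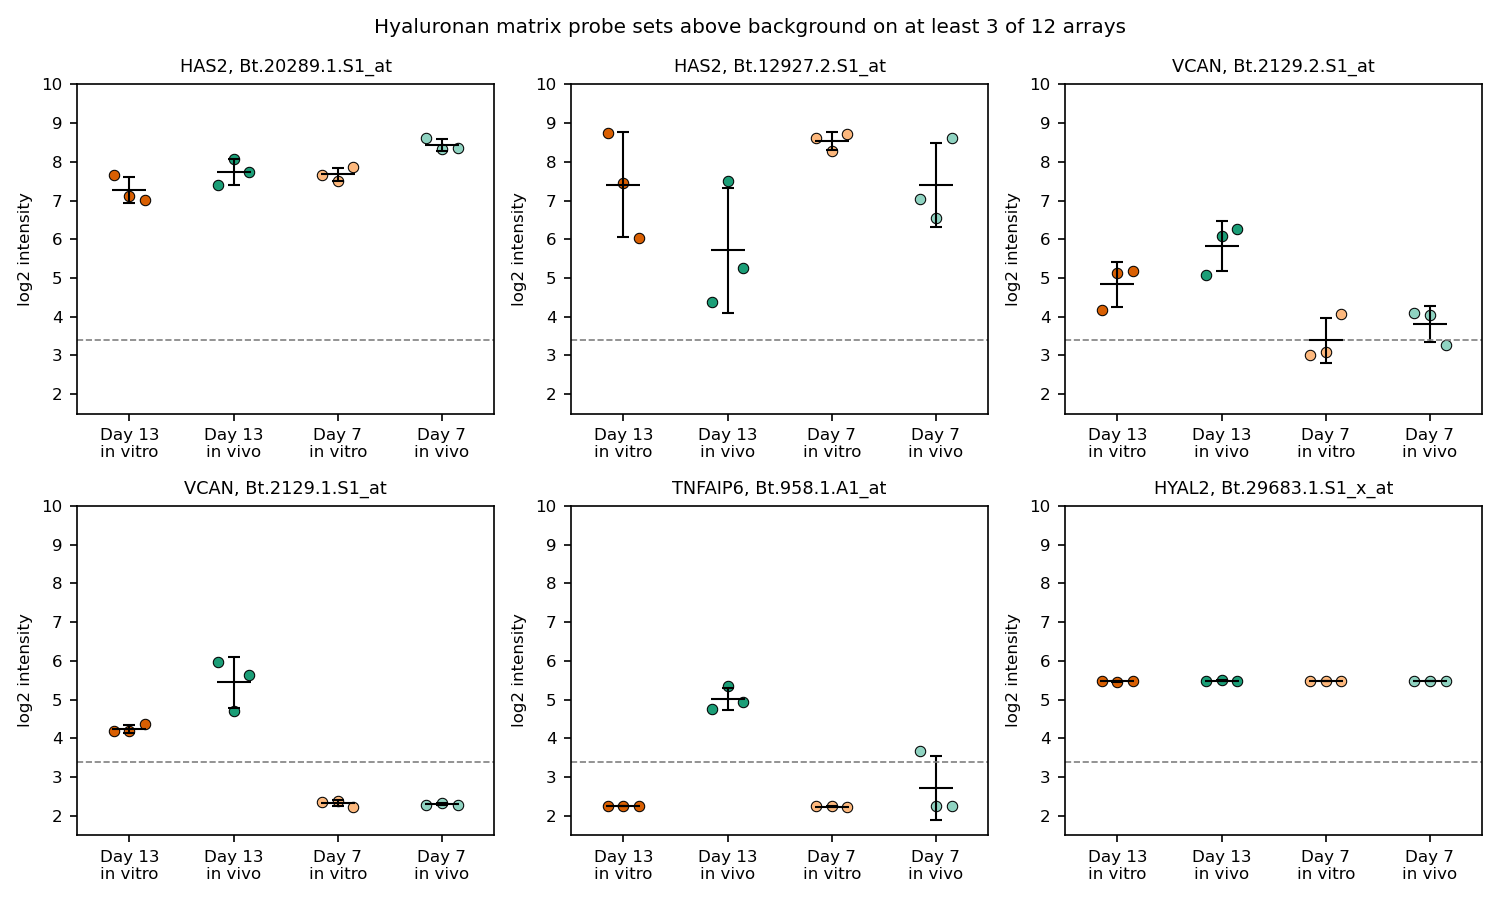
Log2 intensity of the 6 probe sets above background on at least 3 arrays, by group, with a point for each pool, a bar for the group mean and whiskers for the SD (n = 3). The dashed line is the background of 3.39. VCAN Bt.2129.1.S1_at is above it in all 6 Day 13 pools and in no Day 7 pool, TNFAIP6 in the 3 Day 13 in vivo pools and 1 Day 7 in vivo pool, and HYAL2 shows no spread.

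The first comparison asked which of these genes changed between blastocyst and Day 13 conceptus in embryos made in vivo. VCAN and TNFAIP6 were higher at Day 13, each by 1 probe set, and no member was called lower. VCAN Bt.2129.1.S1_at rose by 3.15 ± 0.27 (log2 difference ± SE, limma adjusted p = 0.000455), at least 4.15-fold against background, and at least 1.80-fold when the highest unmatched control is taken as background. TNFAIP6 rose by 2.29 ± 0.35 (limma adjusted p = 0.00963). The Day 7 group was above background in 1 pool of 3, and with the other pools set to background the difference was at least 2.88-fold, or at least 1.34-fold with the highest unmatched control as background. These 2 of the 16 probe sets compare with 911 of 24016 called in all, or 3.79%. The SE draws on the spread of all 4 groups. For VCAN Bt.2129.1.S1_at the SD was 0.02 in Day 7 in vivo pools, near the floor, against 0.65 in Day 13 in vivo pools.

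The other VCAN probe set, Bt.2129.2.S1_at, differed by 2.01 ± 0.45 without overlap and missed the threshold (limma adjusted p = 0.0509). It passed under 6 of the 23 alternatives tried (adjusted p from 0.0115 to 0.247). HAS2 Bt.20289.1.S1_at differed by -0.70 ± 0.21, also without overlap (adjusted p = 0.152). With arrays centred on ribosomal protein genes, which moves all differences by -0.46, that became -1.15 (adjusted p = 0.0116), and with the GAPDH excess as a covariate -1.14 (adjusted p = 0.0443), against a range of 0.0116 to 0.501 over the alternatives. HAS2 Bt.12927.2.S1_at differed by -1.68 ± 0.95 (adjusted p = 0.561). Fitting the 6 arrays of these groups alone left 0 members called, with VCAN Bt.2129.1.S1_at at an adjusted p of 0.0568 and TNFAIP6 at 0.198. The TNFAIP6 call was also lost with the GAPDH covariate (adjusted p = 0.104). Neither call was lost when single arrays were left out (highest adjusted p 0.00279 for VCAN and 0.0326 for TNFAIP6).

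The same interval in embryos made in vitro was examined next. VCAN was higher at Day 13 here too, while TNFAIP6 was not above background on either day. VCAN Bt.2129.1.S1_at rose by 1.92 ± 0.27 (limma adjusted p = 0.00412), at least 1.81-fold against background, and taking the highest control as background gives no bound above 1. It was the 1 member called, where 7.51% of all probe sets were. Bt.2129.2.S1_at differed by 1.44 ± 0.45 without overlap (adjusted p = 0.110), HAS2 Bt.20289.1.S1_at by -0.41 ± 0.21 (adjusted p = 0.376) and HAS2 Bt.12927.2.S1_at by -1.14 ± 0.95 (adjusted p = 0.692), the HAS2 groups overlapping by both probe sets. The VCAN call was kept when any single array was left out (adjusted p up to 0.0202). It was lost with the poly-A spike-in mean as a covariate (adjusted p = 0.104) and without Day 13 in vitro replicates 1 and 2 together (adjusted p = 0.0633).

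Blastocysts of the 2 origins were then compared before transfer. None of the 16 probe sets passed (0 in limma's fit and in each of 23 alternatives), where 0.208% of all probe sets did, and 1 had an unadjusted p below 0.05. That one was HAS2 Bt.20289.1.S1_at, -0.75 ± 0.21 (in vitro minus in vivo, 95% interval -1.24 to -0.26, unadjusted p = 0.0072 and limma adjusted p = 0.422), and every in vitro blastocyst pool was below every in vivo pool. By the other HAS2 probe set the difference was 1.14 ± 0.95 with overlap (adjusted p = 0.887), so the probe sets differed in sign. With the GAPDH excess as a covariate, the second probe set gave -1.49 (adjusted p = 0.819). That was the 1 of 23 alternatives that turned its sign. The excess was 3.40 to 4.19 in the in vitro and 5.58 to 5.65 in the in vivo blastocyst arrays. Origin and this excess therefore cannot be told apart at Day 7. VCAN differed by 0.03 ± 0.27 between groups at background by Bt.2129.1.S1_at and by -0.41 ± 0.45 by Bt.2129.2.S1_at (adjusted p = 1.0 for each). TNFAIP6 differed by -0.48 ± 0.35 (adjusted p = 0.836).

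**Figure D3:**
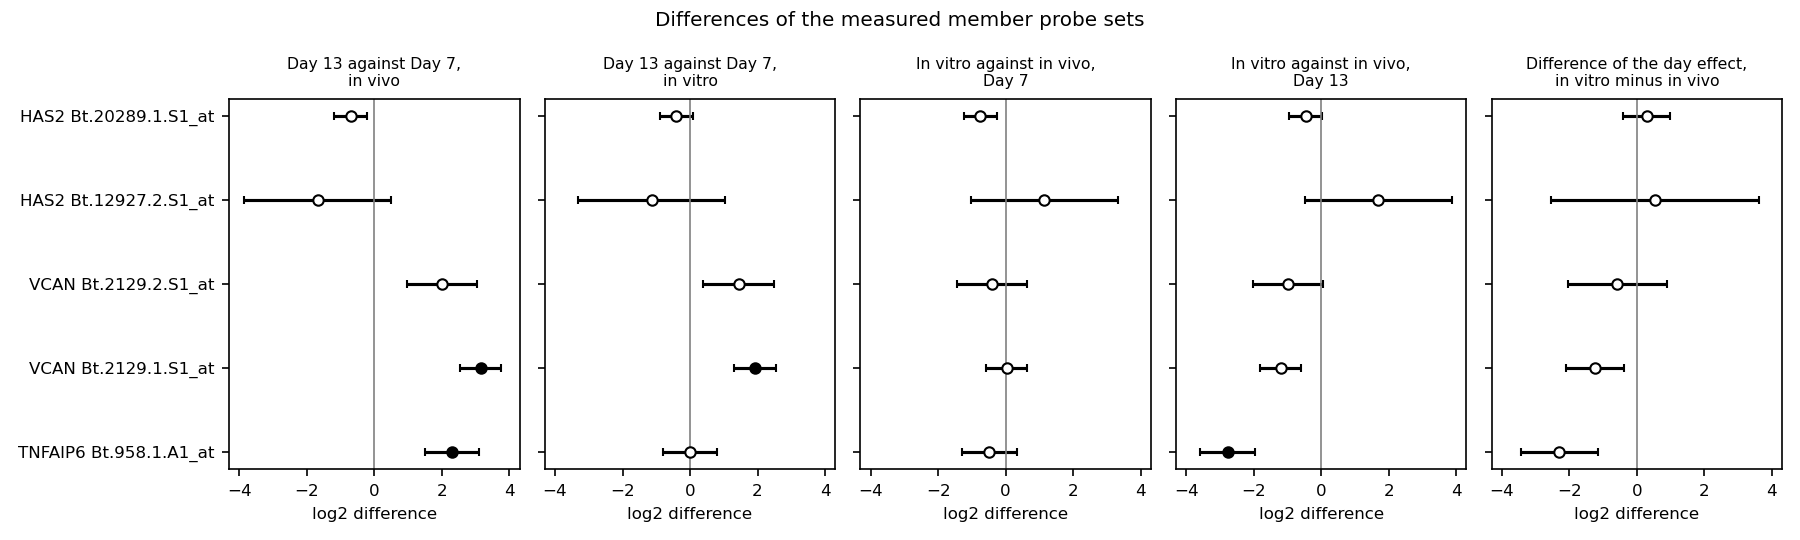
Log2 differences from limma with 95% confidence intervals for the 5 member probe sets above background on at least 3 arrays, HYAL2 left out, in each comparison. Each panel gives the first-named group minus the second, and filled points passed an adjusted p of 0.05. The filled points are VCAN Bt.2129.1.S1_at in both Day 13 comparisons with Day 7 and TNFAIP6 in the in vivo day comparison and between the origins at Day 13.

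Conceptuses of the 2 origins were compared at Day 13, after their stay in recipient heifers. TNFAIP6 was lower in conceptuses of in vitro origin, at least 3.08-fold, with a log2 difference of -2.77 ± 0.35 (limma adjusted p = 0.0111). Taking the highest unmatched control as background, the bound was 1.34-fold. It was the 1 member called of 16, where 1.2% of all probe sets were. The call was kept when any single array was left out (adjusted p up to 0.0462). It was lost when only these 6 arrays were fitted (adjusted p = 0.0717), with the poly-A spike-in mean as a covariate (-2.57, adjusted p = 0.348) and without Day 13 in vitro replicates 1 and 2, the arrays with the lowest spike-in values (-2.77, adjusted p = 0.102). Day 13 in vitro replicate 3 had a spike-in mean of 12.99, still below the 14.25 to 14.57 of the Day 13 in vivo arrays. All 3 Day 13 in vitro arrays had TNFAIP6 at 2.24, near the floor. Origin and spike-in level cannot be told apart here.

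VCAN was also dimmer in conceptuses of in vitro origin, without passing. Bt.2129.1.S1_at differed by -1.20 ± 0.27 without overlap (adjusted p = 0.0776), and by -1.56 with Day 13 in vivo replicate 2 left out (adjusted p = 0.000346, against a range of 0.000346 to 1.0 over the alternatives). Bt.2129.2.S1_at differed by -0.99 ± 0.45 with overlap (adjusted p = 0.342). HAS2 differed by -0.46 ± 0.21 by Bt.20289.1.S1_at (adjusted p = 0.340) and by 1.69 ± 0.95 by Bt.12927.2.S1_at (adjusted p = 0.479).

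The change from Day 7 to Day 13 was set against itself in embryos of the 2 origins by an interaction term, and no member passed (0 in limma's fit, where 0.4% of all probe sets did). At an unadjusted p below 0.05 there were 2, TNFAIP6 and a VCAN probe set. TNFAIP6 had the largest such difference among the measured members, -2.29 ± 0.50 (in vitro minus in vivo change, unadjusted p = 0.00155 and adjusted p = 0.134). Without Day 7 in vivo replicate 1, the blastocyst pool in which TNFAIP6 exceeded background, it was -2.77 (adjusted p = 0.00185), against a range of 0.00185 to 0.638 over the alternatives. VCAN Bt.2129.1.S1_at had -1.23 ± 0.38 (adjusted p = 0.287), and -1.59 without Day 13 in vivo replicate 2 (adjusted p = 0.00225, range 0.00225 to 1.0). VCAN Bt.2129.2.S1_at had -0.58 ± 0.64 (adjusted p = 0.750). HAS2 had 0.29 ± 0.30 by Bt.20289.1.S1_at (adjusted p = 0.734) and 0.55 ± 1.34 by Bt.12927.2.S1_at (adjusted p = 1.0). A difference in the VCAN or TNFAIP6 day effect between the origins was therefore not shown at this threshold.

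The members were next placed beside the other genes of the pathway, in 5 lists in which each gene is given by its brightest probe set. Among the 9155 genes so represented, 5% were called higher and 5.77% lower at Day 13 in vitro, 2.7% and 2.8% at Day 13 in vivo, 0.218% and 0.0765% in vitro against in vivo at Day 7, 0.852% and 0.786% at Day 13, and 0.131% and 0.382% for the difference of the day effect. The median differences of the 5 lists lay between -0.05 and 0.38 over the 5 comparisons, where the median of all genes was 0.00. Genes at or near the floor hold these medians near 0, as 12 of the 16 binding proteins measured were never above background.

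Of 11 measured genes of hyaluronan synthesis and precursor supply, 3 rose and 0 fell at Day 13 in embryos made in vitro, and 0 passed in the in vivo day comparison, where 4 had an unadjusted p below 0.05. UGDH, which oxidises UDP-glucose to the UDP-glucuronate that hyaluronan synthases use, had 9.71, 9.57 and 8.84 in Day 13 in vitro pools, against 6.47, 7.22 and 5.53 in Day 7 in vitro pools, and rose by 2.97 ± 0.59 (limma adjusted p = 0.0199). UAP1, which makes the other substrate, UDP-N-acetylglucosamine, rose by 1.97 ± 0.40 (adjusted p = 0.0224), and PGM3, a mutase earlier in that route, by 2.92 ± 0.64 (adjusted p = 0.0285).

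In the in vivo pools the same genes differed by 1.89 ± 0.59 for UGDH (adjusted p = 0.164), 1.63 ± 0.40 for UAP1 (adjusted p = 0.0746) and 1.63 ± 0.64 for PGM3 (adjusted p = 0.281). Their difference of the day effect was not past the threshold, at 1.08 ± 0.84, 0.34 ± 0.57 and 1.29 ± 0.90. The in vitro calls of UGDH and UAP1 did not hold when either of replicates 1 and 3 of the Day 7 in vitro group, or of replicates 1 and 2 of the Day 13 in vitro group, was left out (adjusted p up to 0.0808 and 0.0906). That of PGM3 was lost without any of these, and also without replicate 2 of the Day 7 in vitro group (up to 0.112). With the poly-A spike-in mean as a covariate, which was lowest in Day 13 in vitro arrays, all 3 calls were lost, at 1.85 for UGDH (adjusted p = 0.740), 1.13 for UAP1 (0.830) and 1.64 for PGM3 (0.934). They were also lost without Day 13 in vitro replicates 1 and 2 together (adjusted p = 0.366, 0.394 and 0.511 in that order) and with only the 6 compared arrays fitted (0.0810, 0.0794 and 0.0565). These enzymes also feed other sugar chains, and hyaluronan itself was not measured.

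Breakdown genes included 1 lower and 0 higher of 7 measured in each day comparison. HYAL1, the lysosomal hyaluronidase, had 5.39, 5.17 and 5.81 in Day 13 in vitro pools, against 9.60, 9.08 and 9.50 in Day 7 in vitro pools. In the in vivo pools it had 5.39, 4.88 and 5.91 at Day 13, against 9.74, 8.28 and 9.79 at Day 7. Every Day 13 pool was below every Day 7 pool. HYAL1 fell by 3.94 ± 0.43 in vitro (limma adjusted p = 0.00131) and fell by 3.88 ± 0.43 in vivo (adjusted p = 0.00211), and neither call was lost when single arrays were left out (adjusted p up to 0.00919). The in vitro call was lost with the poly-A covariate (-3.23, adjusted p = 0.0787) and the in vivo call with only its 6 arrays fitted (adjusted p = 0.0894). The origins differed by 0.12 ± 0.43 at Day 7 and 0.06 ± 0.43 at Day 13 (adjusted p = 1.0 for each). The enzymes that trim hyaluronan fragments in lysosomes, HEXA and GUSB, differed by -0.25 ± 0.61 and -0.57 ± 0.61 in vivo and passed no test.

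Of the binding proteins, 12 of 16 measured were never above background, among them the link proteins HAPLN1 to HAPLN3, the heavy chains ITIH1 to ITIH4 that TNFAIP6 transfers, and AMBP, which encodes the light chain of their parent complex. At Day 13 in vivo 2 rose and 0 fell, TNFAIP6 and HABP2. HABP2, a secreted hyaluronan-binding serine protease, had 3.99, 5.54 and 3.99 in Day 13 in vitro pools, 7.61, 10.26 and 8.09 in Day 13 in vivo pools, 2.99, 3.97 and 3.97 in Day 7 in vitro pools, and 3.99, 3.97 and 3.97 in Day 7 in vivo pools. The 3 Day 13 in vivo pools stood above the other 9, as for TNFAIP6. HABP2 rose by 4.68 ± 0.70 at Day 13 in vivo (limma adjusted p = 0.00875). That call was lost with array weights (4.35, adjusted p = 0.0551), with the GAPDH covariate (3.40, adjusted p = 0.0888) and with only the 6 compared arrays fitted (adjusted p = 0.123). In vitro against in vivo at Day 13, 2 of the 16 were lower, the same 2 genes, with HABP2 at -4.15 ± 0.70 (adjusted p = 0.0338), a call lost without any of 8 single arrays (adjusted p up to 0.138), namely the 6 Day 7 arrays, replicate 1 of the Day 13 in vitro group and replicate 3 of the Day 13 in vivo group. It was lost as well with the trended, robust variance (0.0624), the 6 compared arrays alone (0.388), the poly-A covariate (0.516) and without Day 13 in vitro replicates 1 and 2 together (0.112).

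Receptors and their partners gave 0 calls of 9 measured in all 5 comparisons of limma's fit, and 1 at an unadjusted p below 0.05, between the origins at Day 13. CD44, LYVE1, STAB1, STAB2 and TLR4 were never above background. HMMR, a hyaluronan-binding protein that also works on the mitotic spindle, was above background on all arrays, with 10.14 in Day 13 in vitro pools and 7.95 in Day 13 in vivo pools (difference 2.19 ± 0.78, adjusted p = 0.217). The ezrin, radixin and moesin genes EZR, RDX and MSN, whose products link CD44 to actin, were also above background on all arrays.

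Proteases that cut versican or CD44 included 1 higher of 7 in each day comparison, a different gene each time. ADAMTS1, a versicanase, had 10.70, 10.26 and 10.53 in Day 13 in vitro pools, against 5.53, 4.02 and 5.69 in Day 7 in vitro pools, and rose by 5.41 ± 0.94 (limma adjusted p = 0.0114). As for VCAN, the call was lost with the poly-A covariate (6.21, adjusted p = 0.161) and without Day 13 in vitro replicates 1 and 2 together (5.44, adjusted p = 0.166). In vivo it had 8.12, 8.54 and 4.81 at Day 13, against 4.80, 3.39 and 3.99 at Day 7, a difference of 3.10 ± 0.94 that did not pass (adjusted p = 0.150). MMP2, a gelatinase, was at least 1.49-fold higher at Day 13 in vivo (1.64 ± 0.35, adjusted p = 0.0384), with 3.44, 4.95 and 3.51 against a highest Day 7 in vivo value of 2.51. Taking the highest unmatched control as background gives no bound above 1. That call was lost when any of the 9 arrays outside the Day 13 in vivo group was left out (adjusted p up to 0.114), and with the replicate number as a block (adjusted p = 0.0883). With the GAPDH covariate the difference was 0.99 (adjusted p = 0.326), and 4 further alternatives also ended the call (adjusted p from 0.0600 to 0.350).

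**Figure D4:**
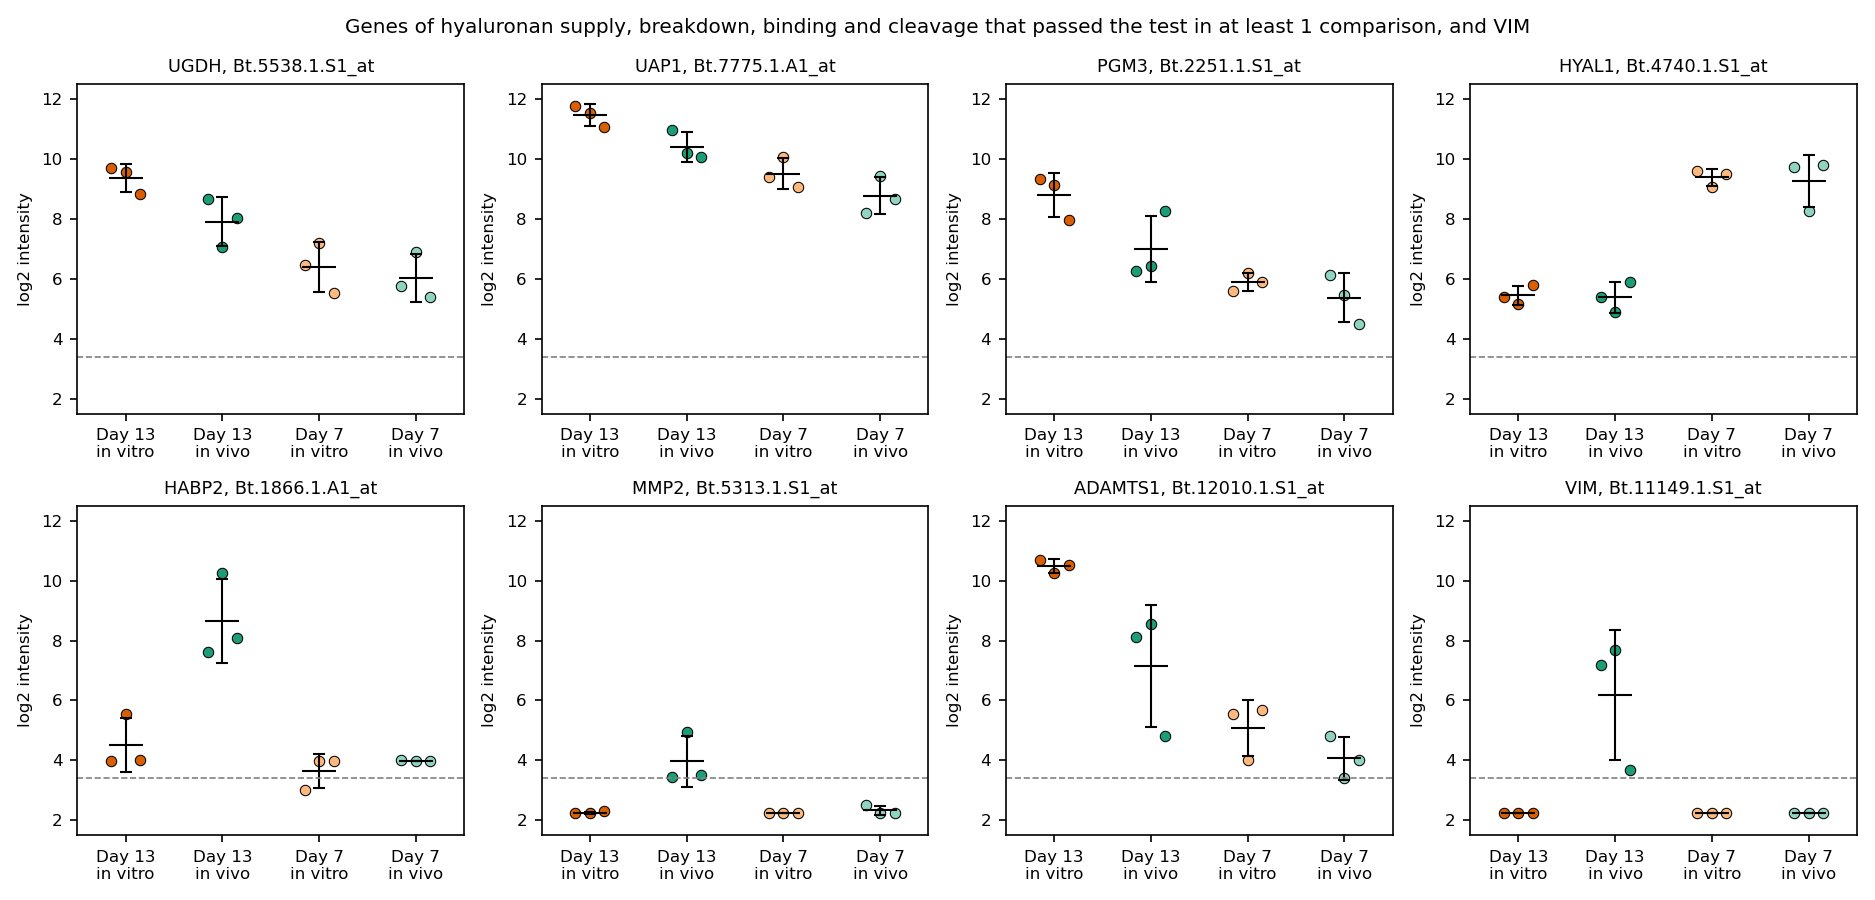
Log2 intensity of 7 pathway genes that passed the test in at least 1 comparison, and of the mesenchymal marker VIM, by group, with a point for each pool, a bar for the mean and whiskers for the SD (n = 3), and the dashed line at the background of 3.39. HYAL1 is lower in all Day 13 pools than in all Day 7 pools, ADAMTS1 is highest in the 3 Day 13 in vitro pools, and HABP2, MMP2 and VIM stand out in Day 13 in vivo pools, VIM with 3.67 in replicate 3 against 7.19 and 7.68 in the other 2.

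Markers of cumulus and granulosa cells were read because 5 of the 7 genes are used as such. Of 19 measured, 10 were never above background, including AMH, FSHR, LHCGR, CYP19A1, FOXL2, INHA and INHBA, named after their values were seen. The rest included genes that rose at Day 13, 4 of 19 in vitro and 3 in vivo with 0 lower. In both these were GJA1, FST and STAR, joined in vitro by AREG. GJA1, a gap junction gene, was higher by 9.02 ± 0.38 in vivo (limma adjusted p = 1.2e-05), and FST, an activin-binding protein gene, at least 79.4-fold (adjusted p = 0.00023), or 34.5-fold with the highest unmatched control as background. No alternative ended a day call of GJA1 or FST, while those of STAR were lost under 3 alternatives in vivo (adjusted p up to 0.158) and 2 in vitro (up to 0.345), and that of AREG under 2 (up to 0.0972). Between the origins, GJA1 was higher in vitro at Day 7 (2.83, adjusted p = 0.0404) and AREG at Day 13 (4.38, adjusted p = 0.00795), 1 of 19 each time. The GJA1 call was lost under 16 of 23 alternatives, 9 of them single arrays left out (adjusted p up to 0.236 over the 16), and that of AREG with only the compared arrays fitted (0.269) and with the poly-A covariate (0.325). The summed linear intensity of the list ran from 9843 to 13173 in Day 13 in vitro pools, 8323 to 10549 in Day 13 in vivo pools, 4783 to 6295 in Day 7 in vitro pools and 2409 to 5185 in Day 7 in vivo pools. The brightest probe sets weigh most in such sums, here and below, so a sum does not describe each gene of a list. The sum was thus higher at Day 13, as VCAN was, and the part of cumulus or granulosa cells in the VCAN result was not tested.

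Trophoblast markers were all above background on at least 3 arrays (14 of 14), a count that Day 13 pools alone can meet. At Day 13 in vitro 9 were higher and 1 lower than at Day 7, and at Day 13 in vivo 6 were higher and 0 lower, with a median log2 difference of 3.65 in vitro and 2.38 in vivo against 0.00 for all genes. Between the origins limma called 0 of 14 on either day, with 8 at an unadjusted p below 0.05 at Day 13 and 2 at Day 7. The summed intensity ran from 62143 to 98676 in Day 13 in vitro pools, 58832 to 69673 in Day 13 in vivo pools, 23096 to 36538 in Day 7 in vitro pools and 17197 to 33237 in Day 7 in vivo pools. VCAN and the trophoblast markers were thus both brighter at Day 13 within each origin. Between the origins at Day 13 neither passed. The markers had a median difference of 1.05, in vitro minus in vivo. Their mean log2 level was 9.86 to 10.68 in vitro and 8.86 to 9.40 in vivo. VCAN differed by -1.20 by Bt.2129.1.S1_at and by -0.99 by Bt.2129.2.S1_at. The part of cell makeup in the VCAN result was not tested.

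Markers of other cells that a flushed conceptus could carry were read in the same way. Endometrial and oviductal epithelium gave 0 calls of 9 in all 5 comparisons of limma's fit, with 1 at an unadjusted p below 0.05 in each of 2 of them. Of the 9, 7 were never above background, including SERPINA14, ESR1 and OXTR, and the summed intensity stayed between 44.1 and 61.5 on all arrays. Blood and immune markers gave 2 lower of 8 at Day 13 in vitro (HBB and HBG) and 1 lower in vivo (HBB), with 6 of 8 never above background, including PTPRC. These calls were lost without any of 4 single arrays for HBB in either origin and any of 11 for HBG (adjusted p up to 0.0728 for HBB in vivo, 0.0612 for HBB in vitro and 0.147 for HBG). Their sum ran from 40.1 to 42.3 in Day 13 in vitro pools, 39.3 to 45.5 in Day 13 in vivo pools, 78.1 to 898 in Day 7 in vitro pools and 295 to 457 in Day 7 in vivo pools.

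Mesenchyme and fibroblast markers included 1 lower of 11 at Day 13 in vitro, COL1A2, and 1 higher in vivo, VIM. At an unadjusted p below 0.05 there were 1 and 5 in these 2 comparisons. Between the origins limma called 0 of 11 on either day, with 4 at an unadjusted p below 0.05 at Day 13 and 2 at Day 7. The COL1A2 call did not hold once replicate 1 of the Day 13 in vitro group was left out (adjusted p = 0.0516), nor without replicates 1 and 2 of that group together (0.171) or with the poly-A covariate (0.208). COL3A1, DCN, LUM and POSTN were never above background, and the summed intensity ran from 5687 to 12930 in Day 13 in vitro pools, 12141 to 14504 in Day 13 in vivo pools, 12745 to 14665 in Day 7 in vitro pools and 19348 to 24355 in Day 7 in vivo pools. In vivo the sum was lower at Day 13 than at Day 7, opposite to VIM. VIM, the intermediate filament of mesenchymal cells, had 7.19, 7.68 and 3.67 in Day 13 in vivo pools and 2.23 on the other 9 arrays. It was at least 6.91-fold higher at Day 13 in vivo (3.95 ± 0.87, limma adjusted p = 0.0468), or at least 3.0-fold with the highest unmatched control as background, a call lost when any array but Day 13 in vivo replicate 3 was left out (adjusted p up to 0.135) and with the replicate block (adjusted p = 0.0905). With array weights the difference was 3.27 (adjusted p = 0.120) and with the GAPDH covariate 2.96 (adjusted p = 0.356), and 4 further alternatives ended the call (adjusted p from 0.0620 to 0.378). Between the origins at Day 13 VIM differed by -3.95 ± 0.87, in vitro minus in vivo, without passing (limma adjusted p = 0.0765). In replicate 3 of the Day 13 in vivo group, where VIM was lowest of that group, TNFAIP6 had 4.93, against 4.76 and 5.34 in replicates 1 and 2. The part of such cells in the TNFAIP6 result was not tested.

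Genes with the most similar pattern over the 12 arrays were found among 5703 named genes by Pearson's r, as a description of arrays that share groups, and nothing is read from it about function. For HAS2 Bt.20289.1.S1_at they were IDH2 (r = 0.898), TNP1 (0.870) and CDK9 (0.842). IDH2, a mitochondrial isocitrate dehydrogenase, had 7.00 ± 0.11 in Day 13 in vitro pools, 7.75 ± 0.16 in Day 13 in vivo pools, 7.70 ± 0.39 in Day 7 in vitro pools and 8.69 ± 0.19 in Day 7 in vivo pools. For VCAN Bt.2129.2.S1_at they were TRAF3IP2 (0.933), DBNDD2 (0.919) and PDE6C (0.913). TRAF3IP2, an adaptor of interleukin-17 signalling, had 5.14 ± 1.24 in Day 13 in vitro pools, 7.26 ± 0.71 in Day 13 in vivo pools, 3.12 ± 0.76 in Day 7 in vitro pools and 4.01 ± 0.02 in Day 7 in vivo pools.

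For TNFAIP6 the closest genes were ADH6 (r = 0.942), UPP1 (0.934) and GSTM3 (0.932). Each stood above background in the Day 13 in vivo group and at background in the means of the other 3. ADH6, an alcohol dehydrogenase gene, had 2.28 ± 0.07 in Day 13 in vitro pools, against 8.11 ± 0.58 in Day 13 in vivo pools. Among the members themselves, TNFAIP6 and VCAN Bt.2129.2.S1_at correlated at r = 0.726 over the 12 arrays and at 0.334 once group means were removed, and HAS2 Bt.20289.1.S1_at and TNFAIP6 at 0.152 and 0.492.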

How the data were processed

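RNA from 12 pools of cattle embryos was measured on 1-colour Affymetrix bovine arrays, 3 per group. The deposited values are log2 intensities of probe sets, already normalized by the authors. Tools named in the submitters' processing notes are RMA, GCRMA and limma, with no version. Whether RMA or GCRMA produced the deposited values is not given in the sources used here. The table held 24128 probe sets, of which 112 controls were left out of the tests. Of the 24016 others, 13292 carried exactly 1 symbol in the platform annotation, 86 several and 10638 none. Gene lists used the probe set with the highest mean for each of 9155 genes.

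Group means over all 12 arrays were fitted with limma 3.58.1 (lmFit, eBayes without trend) in R 4.3.3, with 8 residual and 0.379 prior degrees of freedom. Tests were two-sided, with Benjamini-Hochberg adjustment over 24016 probe sets and a threshold of 0.05. The fit shares 1 estimate of the spread among the 4 groups. Groups at or near the floor have almost no spread and lower that estimate. The SE and p of a difference can then look more precise than the brighter group allows. VIM, for example, had an SD of 2.18 in Day 13 in vivo pools and of 0 in the other groups. Errors of differences are SE and those of levels SD (n = 3). A fold against a group wholly at background is a bound, written "at least", computed from the background. No offset was added to the deposited logs, and probe sets were not filtered. The comparison with simulated data tested the fit on changes of known size. The number of pools limits the precision.

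Members and gene lists were chosen with earlier results of these data known. Named genes were the members above background on at least 3 arrays, up to 3 called genes of each list and comparison, and the 3 genes most similar to each member over 12 arrays. The 3 closest to HYAL2 are not given because its range was under 0.1. HEXA, GUSB, HMMR, EZR, RDX and MSN, and markers at background, are named for their roles after their values were seen. The alternatives were quantile normalization, 2 centrings, a trended and robust variance, a filter on dim probe sets and array weights. Others were 2 covariates, fits to fewer arrays, a replicate block and each array left out. The main fit did not pair arrays by replicate number. Of 18 same-numbered pairs, 3 correlated above 0.1 after group means were removed, with a median r of -0.0633. Between the Day 7 groups, replicates 1, 2 and 3 correlated at -0.0748, 0.386 and 0.279. Pairs of different number were not set beside these, so whether the numbers pair the arrays is not settled.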

Additional observations from a re-analysis of the deposited data

How the results depend on the processing

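In each day and origin comparison 23 alternatives were tried, and 22 for the difference of the day effect, where a fit to the compared arrays alone gives the main fit. The number of the 16 member probe sets called at Day 13 against Day 7 in vivo was 2, and it was 4 with ribosomal protein genes as the centre of each array, 0 with only the compared arrays fitted, and 2 to 3 without single arrays. In vitro it was 1, and it was 2 with ribosomal centring or with dim probe sets filtered out, 6 with array weights, 0 with the poly-A covariate or without Day 13 in vitro replicates 1 and 2 together, and 1 to 1 without single arrays. Between the origins at Day 7 it stayed at 0. Between them at Day 13 it was 1, and it was 0 with only the compared arrays, the poly-A covariate or without replicates 1 and 2 together, 2 with the filter or array weights, and 1 to 2 without single arrays (2 without Day 13 in vivo replicate 2). For the difference of the day effect it was 0, and it was 1 with the filter, 2 with array weights, and 0 to 1 without single arrays (1 without Day 7 in vivo replicate 1 or Day 13 in vivo replicate 2). The estimation of array weights stopped before it converged. Ribosomal centring moved the median of all probe sets by -0.46, 0.19, -0.47, 0.17 and 0.64 in the 5 comparisons. The cause of the other shifts was not tested.

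The number of all probe sets called ranged over the alternatives from 241 to 1509 against 911 as reported for the in vivo day comparison, from 197 to 8237 against 1804 in vitro, from 3 to 172 against 50 between the origins at Day 7, from 0 to 2235 against 288 at Day 13, and from 11 to 1083 against 96 for the difference of the day effect. With the replicate number as a block these were 568, 1212, 12, 119 and 47. That block left the member calls at 2, 1, 0, 1 and 0, with TNFAIP6 at an adjusted p of 0.0356 in the in vivo day comparison and 0.0484 between the origins at Day 13. Besides MMP2 and VIM, it ended the calls of PGM3 (adjusted p = 0.0820) and HBG (0.0764) in the in vitro day comparison and of GJA1 between the origins at Day 7 (0.143), of the 27 calls of single probe sets refitted.

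Signs turned only in differences that had not passed. TNFAIP6 in the in vitro day comparison became -0.0119 with median centring and -0.0856 with the GAPDH covariate. Between the origins at Day 7, HAS2 Bt.12927.2.S1_at became -1.49 with the GAPDH covariate and VCAN Bt.2129.1.S1_at -0.44 with ribosomal centring. At Day 13 the same HAS2 probe set became -0.0614 with the poly-A covariate. For the difference of the day effect, that covariate gave -0.0114 for HAS2 Bt.20289.1.S1_at and -0.907 for HAS2 Bt.12927.2.S1_at. The second of these ran from -0.122 to 1.44 without single arrays, with -0.0657 without Day 7 in vivo replicate 3, -0.119 without Day 13 in vitro replicate 1 and -0.122 without Day 13 in vivo replicate 1, and was -0.835 without Day 13 in vitro replicates 1 and 2, and VCAN Bt.2129.2.S1_at was 0.0674 with ribosomal centring.

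With 3 pools a group, differences near 1 on the log2 scale are hard to call, and values of VCAN and TNFAIP6 near background carry bounds only. Both HAS2 probe sets seen on all arrays had lower means at Day 13 in each origin, without passing. They differed in sign between the origins, which leaves its course uncertain.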

Other observations

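Values shared by many arrays were not confined to HYAL2. Of 24016 probe sets, 685 (2.85%) had at least 6 of 12 arrays within 0.005 of a common value that lay above background. HABP2 had 4 arrays so placed, at 3.97, and DBNDD2, one of the genes closest to VCAN, averaged 3.87 ± 0.00 (SD, n = 3) in both Day 7 groups.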
